A study of Mus musculus with 2 samples.

Results

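The expression of 9 genes of the complement system was described in the cells of aged hindlimb muscle. The genes are C1qa, C1qb, C1qc, C1ra, C4b, C3, Cfd, Serping1 and C3ar1, each matched by its symbol to 1 of the 32285 genes in the deposited count matrices, so that all 9 members were found. Droplet-based single-cell RNA-Seq (scRNA-Seq, in which UMIs tag individual RNA molecules) was available from 2 libraries of C57Bl/6J female mice that were 24 months old. In the ATRA+agonist group, the tibialis anterior, gastrocnemius and quadriceps had received 3 injections within a week of all-trans retinoic acid (ATRA, the active form of vitamin A), CD3254 (an agonist of the nuclear receptor RXR-alpha) and BMS961 (an agonist of RAR-gamma). The DMSO vehicle group received the solvent on the same schedule, and the labels name no transgene or gene deletion for either group. According to the methods, the quadriceps and gastrocnemius, and not the tibialis anterior, were digested for sequencing. The methods describe the sorted cells as live and positive for propidium iodide, a dye that usually marks dead cells, so that the gate is not clear. Each library is a pool from 2 mice that cannot be told apart, which leaves 1 library per group. No test was therefore possible, and all intervals cover counting error only, not the spread between mice.

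Complement is a cascade of blood and tissue proteins that marks microbes, dying cells and debris for removal. In the classical pathway the recognition molecule C1q, assembled from the A, B and C chains, binds a surface and activates the proteases C1r and C1s, which cleave C4 and C2 and so lead to cleavage of C3. C3 fragments coat the surface and release C3a, which acts on the receptor C3aR1, while factor D starts amplification by the alternative pathway and C1 inhibitor (Serping1) blocks C1r and C1s. Most circulating complement is made in the liver, but macrophages are a main source of C1q and fibroblasts are known to make several other components.

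After filtering, 6907 ATRA+agonist and 6953 DMSO vehicle cells remained, with a median of 4663 and 4862 UMIs per cell, and 7 barcodes were shared between the kept cells of both libraries. Of 28 clusters, those that could be named from marker genes formed 12 classes, of which 8 held at least 100 cells in each library and were compared. The ending "-like" marks that a class was assigned here from marker genes. These classes were monocyte or macrophage-like (macrophage-like, 303 ATRA+agonist and 278 DMSO vehicle cells), dendritic-like (268 and 165), fibro-adipogenic progenitor-like (FAP-like, 1297 and 1581), tenocyte-like (156 and 501), smooth muscle or pericyte-like (225 and 309), muscle stem cell-like (MuSC-like, 348 and 487), glial-like (126 and 382) and endothelial-like cells (2508 and 2245). Unnamed clusters held 7.49% of the ATRA+agonist cells and 11.6% of the DMSO vehicle cells. The macrophage-like cluster had all 8 of its markers at least 2-fold higher than other cells, and the dendritic-like cluster had 5 of 6, although Retnla led its genes ahead of Cd209a and its summed macrophage markers reached 6938 CPM and 5689 CPM, against 13370 CPM and 14720 CPM in macrophage-like cells. CPM here are UMIs per 1000000 UMIs of the same class and library.

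On build GRCm38 the C1q genes lie next to each other on the minus strand of chromosome 4 within 18.7 kb, with C1qb at chr4:136880129-136886187, C1qc at chr4:136889804-136893065 and C1qa at chr4:136895917-136898803. C3 (chr17:57203970-57228136) and C4b (chr17:34728380-34743882) share chromosome 17, C3ar1 (chr6:122847138-122856161) and C1ra (chr6:124512405-124523443) share chromosome 6, and Serping1 (chr2:84765387-84775444) and Cfd (chr10:79890853-79892655) lie apart from the others. All 9 are protein-coding genes, and each count sums the reads of a whole gene. C4b and C1ra have near-identical copies, C4a and C1rb, to which reads could be lost. The copies held 23 and 7 UMIs over all kept cells, against 5167 for C4b and 8727 for C1ra, and how reads shared by both copies were assigned is not given in the sources used here.

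Promoter sequences of RefSeq (GRCm38.p6) were found for 6 of the 9 genes, and are shown for the 3 macrophage genes C1qb, C1qc and C3ar1 and for C3, the abundant gene of the stroma, because the data separate these groups by cell class. The windows end before the start of the gene (chr4:136886201-136886450, chr4:136893066-136893164, chr6:122856162-122856407 and chr17:57228137-57228386, in the order of the lines below and all on the minus strand). Bases that GENCODE M21 places inside the gene were cut, 151 from C1qc and 4 from C3ar1, and capitals mark the motif matches.
C1qb: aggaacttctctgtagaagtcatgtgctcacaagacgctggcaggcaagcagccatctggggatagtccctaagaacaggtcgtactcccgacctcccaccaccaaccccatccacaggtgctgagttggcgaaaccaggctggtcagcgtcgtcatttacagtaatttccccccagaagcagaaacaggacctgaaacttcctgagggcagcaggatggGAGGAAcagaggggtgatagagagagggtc
C1qc: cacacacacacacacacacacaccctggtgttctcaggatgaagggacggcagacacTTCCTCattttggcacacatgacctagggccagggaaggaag
C3ar1: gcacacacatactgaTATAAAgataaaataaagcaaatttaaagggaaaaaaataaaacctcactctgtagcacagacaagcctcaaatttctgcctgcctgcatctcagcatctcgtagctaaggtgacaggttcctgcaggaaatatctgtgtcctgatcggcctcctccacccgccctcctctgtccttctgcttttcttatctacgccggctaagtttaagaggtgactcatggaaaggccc
C3: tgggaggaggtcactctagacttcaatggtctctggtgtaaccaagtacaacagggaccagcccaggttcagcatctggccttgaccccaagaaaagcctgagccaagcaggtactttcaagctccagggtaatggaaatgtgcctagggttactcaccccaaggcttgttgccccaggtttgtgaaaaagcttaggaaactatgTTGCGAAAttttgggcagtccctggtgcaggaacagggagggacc
Matches to 3 motifs are given, searched on both strands of the 250 bases before each RefSeq start. A further motif searched, TTCNNNGAA, was found in none of the 6 genes and in 7.02% of 32851 promoters. GAGGAA, the core letters of sites for the myeloid factor PU.1, was found in C1qb, 30 to 25 bases before the start, and on the opposite strand, printed as TTCCTC, in C1qc, 193 to 188 bases before it. The same letters occur in 23.3% of 32851 promoters. TTGCNNAA, the letters of many C/EBP sites, was found in C3, 45 to 38 bases before the start, and in 9.56% of all promoters. TATAAA was found in C3ar1, 235 to 230 bases before the start, and in 12.4% of all. No match overlapped another. C1ra and Cfd held no match to these motifs, and for C1ra GENCODE M21 places 216 of the 250 bases searched inside the gene. These matches describe letters only.

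The 9 genes fell into distinct patterns across the 8 classes, as shown in the plot of levels by cell class. The 3 C1q chains and C3ar1 led in macrophage-like cells, C1ra, C3 and Serping1 led in FAP-like cells, C4b led in glial-like cells and was also found in FAP-like and macrophage-like cells, and Cfd was near 0 in every compared class.

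**Figure D1:**
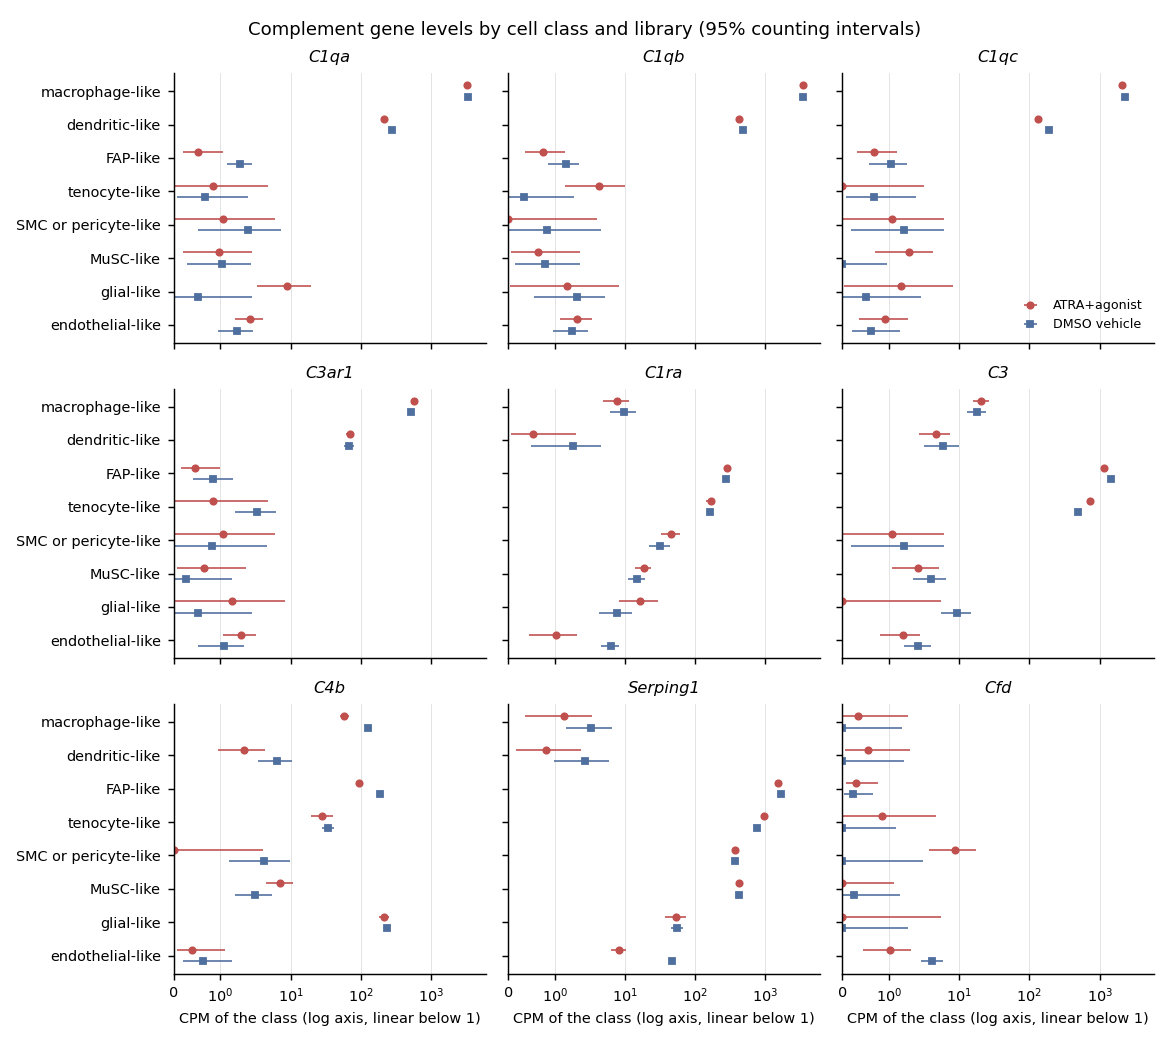
Level of each gene in 8 cell classes (rows), as CPM of the UMIs of the class on an axis that is logarithmic above 1 and linear below it. Circles are the ATRA+agonist library, squares the DMSO vehicle library, and bars are exact Poisson 95% intervals; C1qa stands at 3196 CPM and 3311 CPM in macrophage-like cells, while Serping1 in endothelial-like cells stands at 8.16 CPM and 47.3 CPM.

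C1qa was at 3196 CPM (95% interval 3132 to 3260) in macrophage-like cells of the ATRA+agonist library and at 3311 CPM (3238 to 3384) in those of the DMSO vehicle library. C1qb was at 3449 CPM and 3460 CPM, and C1qc at 2090 CPM and 2300 CPM. Both libraries were thus at nearly the same level for each chain. In dendritic-like cells C1qa reached 214 CPM and 278.6 CPM, C1qb 417.6 CPM and 484.6 CPM, and C1qc 133.9 CPM and 192.9 CPM, all far under the macrophage-like level and above every other compared class. In the other 6 classes no chain was above 8.92 CPM, a value that rests on 6 C1qa UMIs in ATRA+agonist glial-like cells. A C1qa UMI was found in 95.7% of ATRA+agonist and 96.4% of DMSO vehicle macrophage-like cells, at median depths of 9590 UMIs and 8321 UMIs. In endothelial-like cells, a class in which C1q stood near 0 and which had median depths of 2888 UMIs and 3321 UMIs, the shares were 0.598% and 0.579%. With every cell thinned to 1000 UMIs, the macrophage-like shares were 84.8% and 87.4% with no cell left out, and the endothelial-like shares 0.148% and 0.446% with 477 and 226 cells left out.

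The C1q chains were found together in the same cells. All 3 chains had a UMI in 284 of 303 ATRA+agonist macrophage-like cells (93.7%) and 267 of 278 DMSO vehicle cells (96.0%), and none had one in 8 cells of each library (2.64% and 2.88%). Dendritic-like cells were mixed, with all 3 chains in 59 of 268 cells (22.0%) and in 37 of 165 cells (22.4%), and no chain in 61.2% and 64.2%. Within macrophage-like cells the level was spread broadly, since the 10% of cells richest in C1qa held 24.3% of its UMIs in the ATRA+agonist and 24.2% in the DMSO vehicle library, and the median cell held 28 UMIs and 26 UMIs.

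Shares of the chains among all C1q UMIs differed between cell classes more than between libraries. C1qb made up 39.5% (95% binomial interval 38.9% to 40.1%) of the C1q UMIs of macrophage-like cells in the ATRA+agonist library and 38.1% (37.5% to 38.8%) in the DMSO vehicle library. In dendritic-like cells its share was 54.6% (52.7% to 56.4%) and 50.7% (48.5% to 52.8%), and that of C1qa was 28.0% and 29.1%, against 36.6% and 36.5% in macrophage-like cells. The dendritic-like intervals do not overlap the macrophage-like ones. They treat each UMI as independent, while the dendritic-like C1q UMIs of the ATRA+agonist library came from 104 cells, with up to 148 in 1 cell. The spread of the shares between cells is not covered by these intervals. Unnamed cluster 21, led by Chil3, Elane and Plac8, had 307 C1q UMIs in 156 DMSO vehicle cells, of which 56.4% (50.6% to 62.0%) were C1qb. Its 18 ATRA+agonist cells had 0 C1q UMIs, which allows up to 18.4 CPM. Unnamed cluster 12, which mixed mast cell genes (Cma1, Mcpt4, Cpa3) with those of other cells, had shares like the macrophage-like cells, with C1qb at 40.9% (38.0% to 43.7%) and 39.6% (35.4% to 43.8%). The chains summed to 1987 CPM in its ATRA+agonist and 772.5 CPM in its DMSO vehicle cells, and the 8 macrophage markers to 3215 CPM and 1241 CPM.

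**Figure D2:**
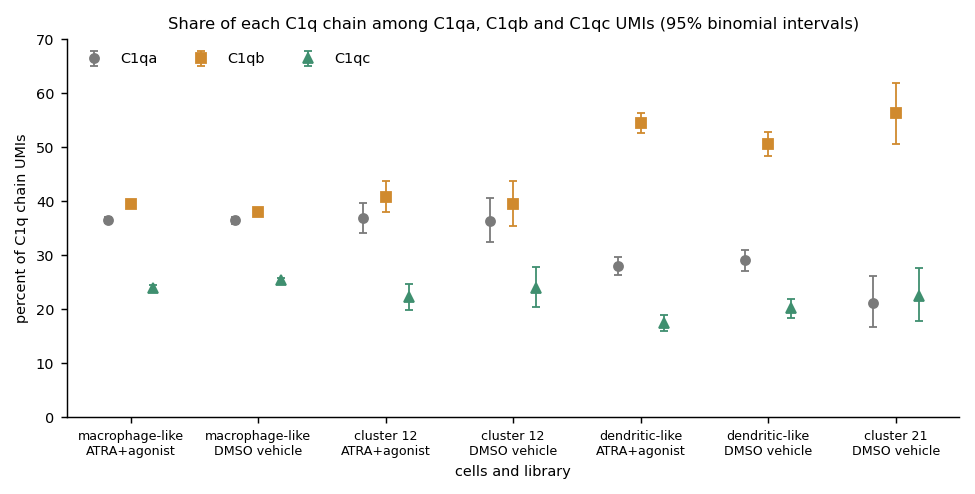
Percent of C1q chain UMIs that came from C1qa (circles), C1qb (squares) and C1qc (triangles), by cells and library, with exact binomial 95% intervals. C1qb is near 40% in macrophage-like cells and cluster 12 and between 50.7% and 56.4% in dendritic-like cells and cluster 21.

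C3ar1, the receptor for C3a, was at 573.7 CPM (546.9 to 601.6) in ATRA+agonist and 523.0 CPM (494.5 to 552.8) in DMSO vehicle macrophage-like cells. Dendritic-like cells had 70.2 CPM and 67.2 CPM, and the other 6 compared classes were at or under 3.38 CPM. Thus receptor and C1q were found in the same classes, whereas C3, the source of the ligand, was at 20.4 CPM and 17.9 CPM in macrophage-like cells.

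C3 was at 1161 CPM (1143 to 1180) in ATRA+agonist FAP-like cells and 1462 CPM (1442 to 1483) in DMSO vehicle FAP-like cells, the highest levels among the compared classes. Tenocyte-like cells followed with 719.4 CPM and 484.8 CPM, and no other compared class was above 20.4 CPM. A C3 UMI was found in 84.4% and 87.6% of FAP-like cells (52.6% and 58.4% after thinning), at median depths of 9949 UMIs and 8025 UMIs, and in 0.478% and 0.891% of endothelial-like cells. C3 was unevenly spread over the class: the 10% of FAP-like cells richest in C3 held 35.6% of its UMIs in the ATRA+agonist library and 37.5% in the DMSO vehicle library, against 23.2% and 25.1% for Serping1. Outside the stroma, C3 was found in cluster 21 at 245.5 CPM (40 UMIs in 18 cells) and 241.3 CPM (425 UMIs in 156 cells), where the FAP markers summed to 135.0 CPM and 88.0 CPM. In neutrophil-like cells it had 21 UMIs over 7 ATRA+agonist cells and 23 UMIs over 40 DMSO vehicle cells, too few cells for a comparison.

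Serping1 was the most widely expressed member. FAP-like cells had 1527 CPM (1506 to 1548) and 1669 CPM (1647 to 1691), and 99.0% of them in either library held a UMI (74.6% and 76.3% after thinning). Tenocyte-like cells followed with 940.4 CPM and 760.3 CPM, then MuSC-like cells with 415.8 CPM (393.4 to 439.2) and 420.8 CPM (400.5 to 441.9). Smooth muscle or pericyte-like cells had 372.5 CPM (334.0 to 414.2) and 371.3 CPM (337.7 to 407.3), which overlaps the MuSC-like intervals in each library. Glial-like cells had 53.5 CPM and 55.6 CPM. Macrophage-like and dendritic-like cells had between 0.823 CPM and 3.33 CPM, and a UMI was in 1.32% and 2.88% of macrophage-like cells.

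C1ra, which encodes the C1r protease, led in FAP-like cells at 287.8 CPM (278.8 to 297.1) and 273.6 CPM (264.8 to 282.7). Tenocyte-like cells had 166.4 CPM and 160.0 CPM, cells of the smooth muscle or pericyte-like class 44.8 CPM and 31.5 CPM, and MuSC-like cells 18.4 CPM and 14.7 CPM. C1ra, C3 and Serping1 all had a UMI in 74.6% of ATRA+agonist and 72.2% of DMSO vehicle FAP-like cells. Of tenocyte-like cells, 38.5% and 25.1% held all 3.

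C4b, whose product is cleaved by C1s, was spread over 3 classes whose intervals did not overlap, with glial-like cells highest. In the DMSO vehicle library glial-like cells had 238.2 CPM (217.0 to 260.9), FAP-like cells 187.9 CPM (180.5 to 195.4) and macrophage-like cells 127.4 CPM (113.6 to 142.5). In the ATRA+agonist library the levels were 215.7 CPM (182.0 to 253.8), 93.4 CPM (88.2 to 98.7) and 57.9 CPM (49.6 to 67.2), in the same order. This order holds for whole classes, as FAP-like cluster 4 stood above the glial-like class, at 264.4 CPM (ATRA+agonist) and 369.6 CPM (DMSO vehicle). C4b was concentrated in few cells, since a UMI was found in 25.3% and 36.4% of FAP-like cells and the 10% richest FAP-like cells held 77.4% and 67.8% of the UMIs. Of glial-like cells 40.5% and 52.1% held a UMI, and in endothelial-like cells the share was 0.0797% and 0.223%. The 8 macrophage markers summed to 221.6 CPM in ATRA+agonist and 2307 CPM in DMSO vehicle glial-like cells, and their part in the C4b level was not tested.

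Cfd, the gene of factor D and a strong marker of fat cells, had 248 UMIs in all ATRA+agonist cells and 38 in all DMSO vehicle cells. Of the former, 123 came from 1 cell of unnamed cluster 20 and 95 from 1 cell of cluster 12, and 28 of the latter came from 1 cell of cluster 2. The 3 cells held 15, 9 and 2 UMIs of the fat cell gene Adipoq and 19, 3 and 4 UMIs of Cidec. Plin1, another fat cell gene, had 9, 1 and 0 UMIs in them. Without the 2 richest cells the counts were 30 UMIs and 38 UMIs, and without all 3 cells they were 30 UMIs and 10 UMIs. Both settings were chosen after the data had been seen. The sign of the Cfd ratio between libraries thus rests on single cells, with log2 values of 2.68 with all cells, -0.36 without 2 cells and 1.56 without 3. In the 8 compared classes no Cfd level was above 8.74 CPM.

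The libraries were then compared within each class, to ask which members differed after ATRA and the agonists. Members with at least 100 UMIs over both libraries in a class were counted, and a log2 ratio of ATRA+agonist over DMSO vehicle past 1.5-fold was called. Of 72 pairs of gene and class, 24 could be counted. None was called higher, 3 were called lower (C4b in FAP-like and in macrophage-like cells, and Serping1 in endothelial-like cells) and 21 lay within 1.5-fold. The share of all counted genes past 1.5-fold in either direction was 6.3% in FAP-like, where 1 of 4 members was called, 5.86% in macrophage-like (1 of 6) and 7.4% in endothelial-like cells (1 of 1). No member was called in dendritic-like cells (0 of 4, against 5.87% of all genes), MuSC-like cells (0 of 2, 8.07%), glial-like cells (0 of 2, 13.3%), smooth muscle or pericyte-like cells (0 of 1, 9.23%) or tenocyte-like cells (0 of 4, 11.7%). The median log2 ratio of the members counted was -0.23 in FAP-like cells and -0.03 in macrophage-like cells, against 0.02 and 0.04 over all genes.

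**Figure D3:**
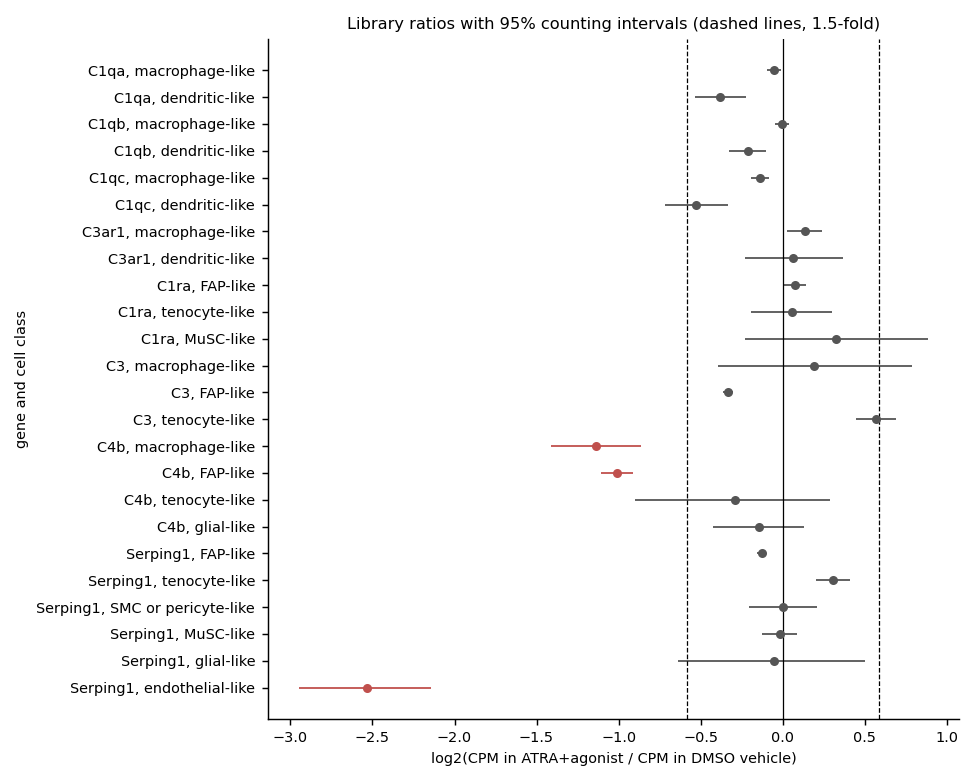
Log2 ratio of ATRA+agonist over DMSO vehicle CPM (horizontal axis) for the 24 pairs of gene and cell class with at least 100 UMIs, with 95% counting intervals. Dashed lines mark 1.5-fold, and the 3 pairs past it, in red, lie between -2.53 and -1.01.

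The C1q chains and C3ar1 differed little between libraries in macrophage-like cells. The log2 ratio was -0.05 (-0.09 to -0.01) for C1qa, -0.0045 (-0.05 to 0.04) for C1qb, -0.14 (-0.19 to -0.09) for C1qc and 0.13 (0.03 to 0.24) for C3ar1. In dendritic-like cells the ratios were -0.38 for C1qa, -0.21 for C1qb, -0.53 for C1qc and 0.06 for C3ar1. The dendritic-like values moved with the settings. The ratio of the summed chains was -0.32 (-0.40 to -0.24), but 0.52 without doublet removal and -0.95 without the hemoglobin filter, so that no direction can be given. When each cell was assigned by its own marker UMIs, C1qa, C1qb, C1qc and C3ar1 were all past 1.5-fold in dendritic-like cells, at -1.02, -0.93, -1.05 and -1.15. That setting had 168 ATRA+agonist and 130 DMSO vehicle dendritic-like cells, in which 8.78% of all 4828 counted genes were past 1.5-fold.

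C4b was lower in the ATRA+agonist library in FAP-like cells, with 1238 UMIs against 2475 UMIs, 93.4 CPM against 187.9 CPM and a log2 ratio of -1.01 (-1.11 to -0.91). The direction was shared by the 3 FAP-like clusters, although cluster 4 lay within 1.5-fold. In cluster 1 (led by Cxcl14, Smoc2 and Mme) C4b was at 35.0 CPM against 90.6 CPM (log2 -1.37), in cluster 8 (Sema3c, Pi16 and Adgrd1) at 57.5 CPM against 152.0 CPM (-1.40), and in cluster 4 (Gdf10, Fst and Igfbp3) at 264.4 CPM against 369.6 CPM (-0.48). Cluster 4, with the highest C4b level in both libraries, made up 24.8% of ATRA+agonist and 33.1% of DMSO vehicle FAP-like cells. With equal weight given to the 3 clusters, a setting chosen once these values were known, the levels were 119.0 CPM and 204.1 CPM and the log2 ratio -0.78. The share of FAP-like cells with a C4b UMI was also lower, at 25.3% (22.9% to 27.8%) against 36.4% (34.1% to 38.9%), although the ATRA+agonist cells were the deeper ones, and after thinning it was 6.32% (5.06% to 7.79%) against 11.5% (9.93% to 13.1%). As the mean of log2 values per cell the difference was -0.32, and the call was lost. On this scale the many cells without a UMI count as 0, which draws the difference toward 0.

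Macrophage-like cells had 173 C4b UMIs in the ATRA+agonist and 306 in the DMSO vehicle library, with a log2 ratio of -1.14 (-1.41 to -0.86). Transcripts of the stroma were scarce in these cells, with Serping1 at 1.34 CPM and 3.33 CPM and the 8 FAP markers summing to 137.3 CPM and 142.4 CPM, with 1 and 0 of them at 0. Without cells that held more than 5 UMIs of the FAP and tenocyte markers, a limit chosen after the data had been seen, the ratio was -1.15. In the ATRA+agonist library 298 cells from 303 stayed, with all 173 C4b UMIs. In the DMSO vehicle library 270 cells from 278 stayed, with 304 UMIs. So few cells were left out that the ratio could hardly move. The part of stromal transcripts in the C4b ratio was thus not tested. The call was lost with every cell thinned to 1000 UMIs (-0.45) and as the mean of log2 values per cell (-0.24), which cells without a UMI draw toward 0. In glial-like cells C4b had 145 UMIs and 463 UMIs and a ratio of -0.14 (-0.42 to 0.13), and in tenocyte-like cells 33 UMIs and 102 UMIs and a ratio of -0.29 (-0.90 to 0.29).

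**Figure D4:**
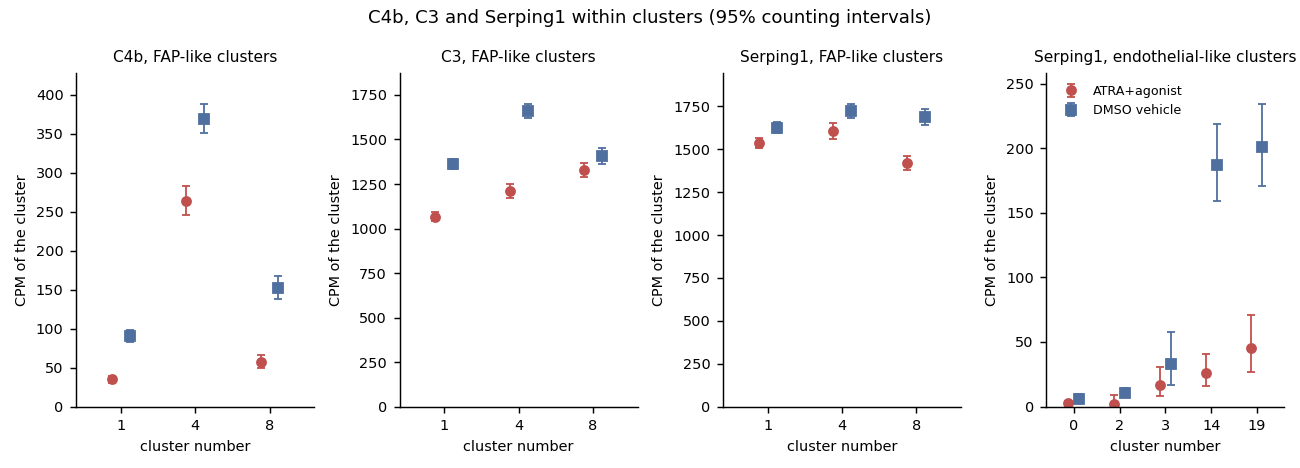
CPM of C4b, C3 and Serping1 in the 3 FAP-like clusters and of Serping1 in the 5 endothelial-like clusters (horizontal axes, cluster numbers), for the ATRA+agonist (circles) and DMSO vehicle library (squares), with exact Poisson 95% intervals. C4b is lower in the ATRA+agonist library in clusters 1, 4 and 8, and Serping1 stands at 26.4 CPM against 187.1 CPM in cluster 14 and at 45.0 CPM against 200.7 CPM in cluster 19.

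Of the 24 pairs, Serping1 in endothelial-like cells differed most, with 62 UMIs in the ATRA+agonist and 378 in the DMSO vehicle library, 8.16 CPM (6.25 to 10.5) against 47.3 CPM (42.6 to 52.3) and a log2 ratio of -2.53 (-2.95 to -2.14). The level was low in most of these cells, as 1.91% and 6.68% held a UMI. Cluster 14, led by Cytl1, Nebl and Sema3g, and cluster 19, led by Ccl21a, Selp and Plvap, held most of it. In cluster 14 Serping1 was at 26.4 CPM (20 UMIs) against 187.1 CPM (157 UMIs), a log2 ratio of -2.83 (-3.58 to -2.15), in a cluster in which 9.47% of all counted genes were past 1.5-fold. Cluster 19 had 45.0 CPM (18 UMIs) against 200.7 CPM (158 UMIs), a ratio of -2.15 (-2.95 to -1.45), where 17.3% of all counted genes were past 1.5-fold. Of the cells of cluster 14, 9.03% and 35.6% held a UMI, and of those of cluster 19, 16.0% and 35.9%. The makeup of the endothelial-like class differed between libraries. Cluster 0 held 58.9% of its ATRA+agonist and 28.8% of its DMSO vehicle cells, and cluster 2, led by the interferon-response genes Cd274, Gbp4 and Rsad2, held 6.46% and 43.0%. With equal weight given to the 5 clusters, also chosen with the data known, Serping1 was at 18.4 CPM and 87.3 CPM, with a log2 ratio of -2.25. Cluster 0, led by Aqp1, Timp4 and Gm12002, had 13 UMIs in each library, which is 2.50 CPM against 5.53 CPM.

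Other genes also differed between the libraries in endothelial-like cells. A list of 17 interferon-response genes, such as Irf1 and Gbp2, summed to 5681 CPM in ATRA+agonist and 10610 CPM in DMSO vehicle endothelial-like cells (log2 -0.90), with 16 of 17 genes below 0, and its log2 ratio was -0.57 in cluster 14 and -0.63 in cluster 19. In cluster 0 the sum of the list had the opposite sign, at 5462 CPM and 4736 CPM (0.21, 0.17 to 0.24), while the median of its 16 counted genes was -0.05 and 9 of them were below 0. Cluster 3 had the lowest ratio of the list among the 5 clusters, at -1.86, while its Serping1 had 10 UMIs and 12 UMIs (-0.98, -2.35 to 0.36). In cluster 2 the list was at -0.51 and Serping1 had 1 UMI and 38 UMIs (-2.72, -8.06 to -0.15). Serping1 had too few UMIs to be counted in clusters 0, 2 and 3, and its intervals in clusters 2 and 3 overlap. Whether the 2 sets of ratios ran in the same order over the clusters was thus not tested. Hemoglobin transcripts, which come from red blood cells, were lower in the ATRA+agonist library in each of the 8 classes. The 4 hemoglobin genes summed to 333.3 CPM against 1008 CPM over all kept cells (log2 -1.60), with ratios of -1.35 in endothelial-like, -1.75 in FAP-like and -1.65 in macrophage-like cells. The part of the interferon-response and hemoglobin genes in the lower calls of Serping1 and C4b was not tested. The 8 FAP markers, all with a UMI in both libraries, summed to 55.7 CPM and 76.5 CPM over endothelial-like cells, against 38310 CPM and 33990 CPM in FAP-like cells. In cluster 19 they summed to 50.1 CPM and 185.5 CPM, with 4 and 3 of them at 0. The 9 smooth muscle or pericyte markers, which mark cells with Serping1 near 372 CPM, were also lower in the ATRA+agonist library in cluster 19, at 142.7 CPM against 663.1 CPM with 4 and 2 of them at 0. In cluster 14 they summed to 231.9 CPM and 396.8 CPM, with 2 of them at 0 in each library, and over all endothelial-like cells to 373.2 CPM and 349.5 CPM. Without the cells that held more than 5 UMIs of the FAP and tenocyte markers, 54 UMIs and 363 UMIs of Serping1 remained in endothelial-like cells and the ratio was -2.68 (-3.12 to -2.26). Only few cells were left out, as 2504 from 2508 and 2239 from 2245 stayed, so that this ratio could hardly move. With the smooth muscle or pericyte markers added to that limit, 2351 and 2104 cells stayed. The ratio was then -2.75 (-3.25 to -2.29) in endothelial-like cells, -3.21 in cluster 14 and -2.29 in cluster 19. Both limits were chosen with the data known. The part of such transcripts in the cells that stayed was not tested. Of the other members, C1ra had too few UMIs to be counted there, with 8 UMIs and 50 UMIs. Without doublet removal the Serping1 ratio was -1.63. As the mean over cells of log2(UMIs per 10000 UMIs + 1), a scale on which the many cells without a UMI count as 0, the difference was -0.11 and the call was lost.

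In stromal cells C3 was within 1.5-fold between libraries, but in opposite directions in FAP-like and tenocyte-like cells. The log2 ratio was -0.33 (-0.36 to -0.30) in FAP-like cells, from 15400 UMIs and 19267 UMIs, and 0.57 (0.44 to 0.69) in tenocyte-like cells, from 843 UMIs and 1436 UMIs. The tenocyte-like value lies just under the call, and was past it with every cell thinned (0.73) and with median-of-ratios scaling (0.60). By FAP-like cluster, C3 was at 1067 CPM against 1363 CPM in cluster 1, at 1209 CPM against 1662 CPM in cluster 4 and at 1327 CPM against 1406 CPM in cluster 8. Serping1 had a ratio of -0.13 (-0.16 to -0.10) in FAP-like and 0.31 (0.20 to 0.41) in tenocyte-like cells. Beside these values in tenocyte-like cells, the 8 FAP markers, none of them at 0, summed to 25830 CPM in the ATRA+agonist and 18350 CPM in the DMSO vehicle library, and the 7 tenocyte markers to 18780 CPM and 17130 CPM. Their part in the C3 and Serping1 values was not tested.

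C1ra was within 1.5-fold in the classes where it could be counted, with log2 ratios of 0.07 (0.01 to 0.14) in FAP-like and 0.06 (-0.19 to 0.30) in tenocyte-like cells. In MuSC-like cells its ratio was 0.33 (-0.23 to 0.89) from 57 UMIs and 56 UMIs. With every cell thinned to 1000 UMIs it was 1.30, a value from too few UMIs to be counted as a call. Serping1 was likewise close in MuSC-like cells (-0.02, -0.12 to 0.09), glial-like cells (-0.05, -0.64 to 0.50) and cells of the smooth muscle or pericyte-like class (0.0045, -0.20 to 0.21). The interferon-response list had ratios of 0.02 in MuSC-like, -0.27 in smooth muscle or pericyte-like, -0.28 in FAP-like, -0.29 in tenocyte-like and -0.31 in macrophage-like cells.

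A list of 45 other complement genes was set beside the members by role. Of 360 pairs of gene and class, 61 could be counted, 2 were called higher, 6 lower and 53 lay within 1.5-fold, and 4 genes had 0 UMIs in all kept cells. In FAP-like cells 1 of 15 genes was called, against 6.3% of all genes, and the list's median log2 ratio was -0.02, against 0.02. In macrophage-like cells 2 of 11 were called, against 5.86%, and the median was -0.34, against 0.04. In endothelial-like cells 2 of 8 were called (7.4% of all genes), in smooth muscle or pericyte-like cells 2 of 5 (9.23%), in tenocyte-like cells 1 of 6 (11.7%), and none of 7 in dendritic-like, of 5 in MuSC-like and of 4 in glial-like cells.

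Of the initiating proteins, C1s1, the partner protease of C1r, had the highest level of the list in FAP-like cells, at 531.3 CPM and 540.4 CPM. The decay-accelerating factor Cd55 had 323.4 CPM and 244.7 CPM and the collectin Colec12 had 286.0 CPM and 271.4 CPM, so that their order differed between libraries. None of these 3 was past 1.5-fold in FAP-like cells. Fcna, which encodes a ficolin, was called lower in macrophage-like cells, at 21.1 CPM against 34.2 CPM (log2 -0.69, -1.19 to -0.20). Of the alternative pathway, Cfb, the gene of factor B, was called lower in endothelial-like cells, at 7.63 CPM against 12.8 CPM (-0.74, -1.23 to -0.26).

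Among receptors and regulators, the C5a receptor C5ar1 was at 484.3 CPM and 515.1 CPM in macrophage-like cells, and the integrin Itgam, part of complement receptor 3, was at 221.7 CPM and 230.3 CPM. Vtn, the gene of vitronectin, was called higher in smooth muscle or pericyte-like cells, at 1390 CPM against 910.9 CPM (0.61, 0.49 to 0.73), and Clu, the gene of clusterin, was called higher in tenocyte-like cells, at 265.4 CPM against 168.5 CPM (0.66, 0.45 to 0.86). Csmd1, a membrane protein with complement control domains, was called lower in FAP-like cells, at 128.6 CPM against 255.6 CPM (-0.99, -1.08 to -0.91). In cells of the smooth muscle or pericyte-like class it was also called lower, at 171.5 CPM against 674.7 CPM (-1.98, -2.23 to -1.73). Csmd1 led in glial-like cells, at 8778 CPM and 8078 CPM, a class with 126 ATRA+agonist and 382 DMSO vehicle cells. The part of glial transcripts in the lower Csmd1 calls was not tested. Cd55 was called lower in endothelial-like cells, at 8.82 CPM against 13.8 CPM (-0.64, -1.10 to -0.19). The part of the differing cluster makeup of endothelial-like cells in the Cfb and Cd55 values was not tested. Vsig4, a macrophage receptor for C3b, was called lower in macrophage-like cells, at 17.8 CPM against 33.7 CPM (-0.93, -1.45 to -0.41). Where the call was past 2-fold, Csmd1 in smooth muscle or pericyte-like cells alone remained. The share of all genes past 2-fold is not given here, so that this count has no background beside it.

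Genes whose levels ran most like those of the members over the 8 classes in both libraries were sought among 9050 genes, as Pearson's r of log2(CPM + 10) over 16 values. These correlations are descriptions, since classes of a library share its depth and processing. C1qa and C1qc were closest to Adgre1 (F4/80), Fcgr1 (CD64) and Cd163 (r between 0.996 and 0.999), which are markers of macrophages. C1qb was closest to Cd300ld (0.999), Clec4a1 and Ms4a6d (both 0.997), and C3ar1 to Ccl3 (0.999), Fcgr1 and Adgre1 (both 0.998). C1ra was closest to Tbx15 (0.968), Dnm3os and Srpx, C3 to Myoc (0.982), Dnm1 and P4hb, and Serping1 to Asap3 (0.972), Twsg1 and Glis2. C4b had no partner as close, with Gm16638 (0.904), Tgfbr2 (0.885) and Fmn1 (0.867), and Cfd had Letm1 (0.805), Zdhhc6 and Arfrp1. Among the members, r was between 0.990 and 0.998 for the pairs of C1qa, C1qb, C1qc and C3ar1, and that of C1qa with Serping1 was -0.72.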

How the data were processed

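The 2 droplet libraries, 1 per treatment, were read from the deposited matrices of UMI counts. The authors aligned the reads to mm10 (GRCm38) and counted with Cell Ranger 7.2.0, and the counts were not normalized. The annotation release, and whether intronic reads were counted, are not given in the sources used here, so gene positions were taken by gene ID from GENCODE M21. UMIs count molecules once, and reads are taken near the 3' end, but whether the counts depend on gene length was not tested. Ratios between libraries were taken within a gene. The C1q chain shares and the orders of genes by level compare different genes and carry this limit. Total counts were 65197625 over 10444 barcodes (ATRA+agonist) and 109343486 over 17394 barcodes (DMSO vehicle), and 43 barcodes occur in both. Barcodes under 300 genes held at most 2.36 CPM of any member.

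Cells with 300 to 5000 genes, under 20% mitochondrial and under 0.25% hemoglobin beta UMIs were kept, and the 7.5% of cells most like artificial doublets were removed per library, in a rebuilt form of the authors' procedure. Clustering (2000 variable genes without complement and interferon genes, 30 components, 20 neighbors, resolution 0.8) used scikit-learn 1.9.0 and python-igraph 0.11.9. A cluster was named from at least 3 markers with 10 or more UMIs and 2-fold higher levels than in other cells. It stayed unnamed where markers of another class led, or where none led and under 75% were higher. The thresholds for names were chosen with the clusters in view.

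UMIs were summed per class and library, with exact Poisson, binomial (Clopper-Pearson) and conditional 95% intervals (scipy 1.17.1), checked on simulated data. They cover counting error only, and a count of 0 was taken to allow 3 counts. There was no test, since each group is 1 library. The members and lists were chosen with earlier results of these data known. Named genes were all members, and of the other complement genes those past 1.5-fold and the 3 highest in macrophage-like and in FAP-like cells, of which 1 is not reported here. For each member the 3 genes most like it were named, among genes with at least 1000 UMIs, and clusters were described by their 3 leading genes. Alternatives are given in the closing section.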

Additional observations from a re-analysis of the deposited data

Results flagged for a closer look

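The ratios of C3 and Serping1 had opposite signs in tenocyte-like and in FAP-like cells, and those of Serping1 also in tenocyte-like and in endothelial-like cells, with counting intervals on either side of 0. The log2 ratio of ATRA+agonist over DMSO vehicle for C3 was 0.57 (0.44 to 0.69) in tenocyte-like cells and -0.33 (-0.36 to -0.30) in FAP-like cells. For Serping1 it was 0.31 (0.20 to 0.41) in tenocyte-like cells, -0.13 (-0.16 to -0.10) in FAP-like cells and -2.53 (-2.95 to -2.14) in endothelial-like cells. With 1 library per group, these differences between classes were not tested.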

How the results depend on the processing

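With 1 library per group no replicate could be left out. No paired analysis was possible because each group has 1 library. Over 27 log2 ratios and 18 alternatives, 307 values were recomputed, of which 213 lay inside the counting interval of the reported value, 93 lay outside it and 1, for Cfd, changed sign after a called value. Sign changes of values that had not been called are counted among the 213 and the 93. For C3 in macrophage-like cells the ratio ran from -1.95 to 0.20, with the sign of the reported 0.19 in 9 of 12 alternatives. For C1qa in dendritic-like cells it ran from -3.10 to 0.58, with 8 of 9 alternatives below 0. Settings added after the data had been seen gave -0.36 for Cfd without its 2 richest cells and 1.56 without 3 cells, and with equal weight to the FAP-like clusters -0.78 for C4b and -0.30 for C3. The number of member pairs called was 8 with classes set cell by cell (where between 6.02% and 12.2% of all genes were past 1.5-fold) and 3 in each of the other 9 settings in which it was counted. Thinning and the mean of log2 values were not among these 9, and the mean of log2 values lost all 3 calls, thinning that of C4b in macrophage-like cells. Cells without a UMI draw the mean of log2 values toward 0, so that the 1.5-fold line is harder to pass on that scale. Of the other complement genes, 1 pair was past 2-fold, against 8 past 1.5-fold, and the share of all genes past 2-fold is not given here. For the summed C1q chains in macrophage-like cells the ratio was -0.25 at resolution 0.4, 0.26 with classes set cell by cell from marker UMIs, -0.26 without doublet removal, -0.081 without a maximum of genes, -0.26 under 10% mitochondrial UMIs, -0.17 without the hemoglobin filter, 0.0090 with cells thinned to 1000 UMIs, -0.10 with median-of-ratios scaling and -0.12 as the mean of log2 values per cell. For C3ar1 it was -0.035 at resolution 0.4, 0.48 with own markers, -0.043 without doublet removal, -0.053 under 10% mitochondrial UMIs and 0.0048 after thinning, so that neither gene set has a stable direction. In FAP-like cells C4b was at -0.91 without a maximum of genes and -0.32 as the mean of log2 values. C3 was at -0.42 at resolution 0.4 and with complement genes kept for clustering, -0.38 without a maximum of genes and -0.28 as the mean of log2 values, and Serping1 at -0.17 with own markers and -0.090 as the mean of log2 values. The cause of these shifts was not tested. Over its alternatives Serping1 in endothelial-like cells ran from -2.90 to -0.11 and C4b in macrophage-like cells from -1.36 to -0.24, the value nearest 0 of each being the mean of log2 values per cell. With a minimum of 20 UMIs, between 13.9% and 25.2% of all genes were past 1.5-fold.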
